A study of Homo sapiens with 12 samples.

Results

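Adherens and tight junction genes were followed through HCT-116 cells treated with heteronemin, tetrac or both. The genes were CDH1, CTNNB1, OCLN, CLDN4, CLDN7 and TJP3, 6 of the 770 genes counted, and all 6 were found by symbol in each of the 3 deposited tables. They were selected on the measured values, with the group means and p-values of these tables already known, so their values against control are descriptions and no p below tests the choice. HCT-116 is an established human colorectal carcinoma line of epithelial origin that carries an activating in-frame deletion in CTNNB1. The 12 samples fall into 4 groups of 3: Control, Heteronemin, Tetrac and Heteronemin+Tetrac, all of the same line, with treatment for 24 h. Heteronemin is a sesterterpenoid made by marine sponges. Tetrac, or tetraiodothyroacetic acid, derives from the thyroid hormone thyroxine by deamination and is known to bind integrin alpha-v beta-3. The sources used here give neither the doses nor the vehicle of the control. RNA was counted with the nCounter PanCancer Progression panel of NanoString, in which a barcoded probe is counted for each captured transcript.

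Epithelial cells are held together below their apical surface by 2 kinds of belt. At the adherens junction, E-cadherin, encoded by CDH1, binds E-cadherin of the neighbouring cell and is tied to actin through beta-catenin, encoded by CTNNB1, which is also the transcriptional effector of canonical WNT signalling. At the tight junction, the claudins and occludin span the membrane and seal the space between cells, and the ZO scaffold proteins anchor them to the cytoskeleton. CLDN4 and CLDN7 encode claudins, OCLN encodes occludin and TJP3 encodes the scaffold ZO-3. The transcription factors SNAI1 and ZEB1 repress CDH1 and other junction genes by binding E-box sequences in their promoters. The panel counts transcripts, and neither junction proteins nor adhesion was measured.

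The upstream sequences of the junction genes are shown because known repressors of these genes were counted on the same panel. RefSeq windows of the 250 bases before an annotated start site were found for 5 of the 6 genes, 8 windows in all in the build GRCh38.p14. The CDH1 window was not among them. The repressor E-box was searched as CACCTG or its reverse complement CAGGTG, and the GC box, a binding sequence of SP1-type factors, as GGGCGG or its reverse complement CCGCCC. An E-box and a GC box cannot overlap in letters beyond single end bases. CTNNB1 and CLDN4 have 1 start each in that table, and their windows held no E-box. In these windows the capitals mark GC boxes, 3 in CTNNB1 and 1 in CLDN4, written 5′ to 3′ on the strand of the gene.
CTNNB1, chr3:41199255-41199504, plus strand: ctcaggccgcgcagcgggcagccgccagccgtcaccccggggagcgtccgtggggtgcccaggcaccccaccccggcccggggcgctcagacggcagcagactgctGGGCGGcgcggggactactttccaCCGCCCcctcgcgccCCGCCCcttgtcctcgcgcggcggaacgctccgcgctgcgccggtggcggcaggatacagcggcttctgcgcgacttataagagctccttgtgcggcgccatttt
CLDN4, chr7:73830746-73830995, plus strand: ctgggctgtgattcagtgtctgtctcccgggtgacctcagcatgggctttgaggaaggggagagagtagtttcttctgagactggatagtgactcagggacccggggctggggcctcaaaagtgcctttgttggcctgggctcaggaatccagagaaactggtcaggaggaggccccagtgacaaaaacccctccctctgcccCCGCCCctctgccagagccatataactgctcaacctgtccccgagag

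E-boxes were found in windows of OCLN, CLDN7 and TJP3, each with 2 start sites in that table. The window before each second start lies wholly or almost wholly past the first start of the same gene. It is upstream of the second start only, and may lie inside longer transcripts of that gene. The stretches of 30 bases that hold them are printed with the E-box in capitals, and positions are counted back from the start site, with -1 the last base before it.
OCLN, chr5:69492502-69492531, plus strand, start 1, bases -45 to -16 from the start site: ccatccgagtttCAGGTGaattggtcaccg
OCLN, chr5:69492645-69492674, plus strand, start 2, bases -145 to -116 from the start site: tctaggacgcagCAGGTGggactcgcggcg
CLDN7, chr17:7262635-7262664, minus strand, start 2, bases -186 to -157 from the start site: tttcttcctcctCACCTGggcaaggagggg
CLDN7, chr17:7262596-7262625, minus strand, start 2, bases -147 to -118 from the start site: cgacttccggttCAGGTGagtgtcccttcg
CLDN7, chr17:7262481-7262510, minus strand, start 2, bases -32 to -3 from the start site: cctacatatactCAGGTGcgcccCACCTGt
TJP3, chr19:3721707-3721736, plus strand, start 2, bases -30 to -1 from the start site: gagacctggaggaggaagaggggCAGGTGc

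The second CLDN7 start had 4 E-boxes in its window, and the first CLDN7 start and the first TJP3 start had 0. In all, 4 of the 8 windows held an E-box, against 17.5% of 35116 windows of the same length in the RefSeq table and 17.8% of the 904 windows of panel genes. A GC box was present in 6 of the 8, against 42.6% of all windows and 55.1% of those of panel genes. The GC content of the 8 windows ran from 58.8% to 74.4%, with a median of 58.0% over all windows. A match is a description of these letters and shows no binding. The windows of second starts are counted among the 8, though they may hold transcribed sequence of the same gene.

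The values below are the authors' group means of normalized counts. No SD or interval can be given, because values per sample were not used here. No label states that replicates were separate cultures, and the authors' p-values may therefore rest on technical spread. Summed over the panel, normalized counts ranged from 280484 after Heteronemin to 333810 in Control, and the raw depth is unknown. The lowest mean in any group was 33, taken as a floor. The members lay well above it, with a lowest group mean of 204.35. Less RNA per cell and fewer cells of a kind cannot be told apart in such bulk samples. Of 4 measured colon epithelial markers, EPCAM ranged from 1402.5 to 1814.19 and KRT19 from 1376.01 to 1636.72 over the groups, while CEACAM5 was at the floor in Control. The 7 stromal markers summed to between 284.8 and 412.9, with 3 of 7 at the floor in Control. The 3 endothelial markers summed to between 99.3 and 126.2 and the 2 blood markers to between 68.6 and 125.8, with 2 of 3 and 1 of 2 at the floor in Control. CDH2, the neural cadherin, and TEK were at the floor in all 4 groups. The sums of all 3 lists were highest after Heteronemin, and their part in the values below was not tested. In Control most of these markers were at or near the floor. Among the stromal markers COL1A1 was 67.15 in Control and 144.34 after Heteronemin. COL3A1, DCN and LUM were also higher after Heteronemin, while VIM and FN1 were lower, at 35.43 and 33 against 39.03 and 46.46 in Control.

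The adherens junction pair differed between groups in different ways. CDH1 had a mean of 508.86 in Control, 373.64 after Heteronemin, 474.87 after Tetrac and 471.03 in the combination. Heteronemin alone stood apart at the low end, and the other treated means lay close together, just under Control. CDH1 was 1.36-fold lower after Heteronemin than in Control, with p = 0.03 in the authors' deposited table. It was 1.07-fold lower after Tetrac and 1.08-fold lower after Heteronemin+Tetrac, with p = 0.51 and p = 0.37 in the authors' deposited table. CTNNB1 had a mean of 3252.93 in Control, 2230.51 after Heteronemin, 2985.43 after Tetrac and 2281.44 in the combination. Its groups fell into a high pair, Control and Tetrac, and a low pair, the 2 groups that received heteronemin. CTNNB1 was 1.46-fold lower after Heteronemin and 1.43-fold lower after Heteronemin+Tetrac, each with p = 0.03 in the authors' deposited table. After Tetrac it was 1.09-fold lower, with p = 0.51 in the authors' deposited table.

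OCLN, CLDN4 and CLDN7, the membrane-spanning tight junction genes among the members, were highest in the combination. OCLN, which encodes occludin, had a mean of 258.12 in Control, 252.57 after Heteronemin, 229.23 after Tetrac and 294.87 in the combination. It was 1.13-fold lower after Tetrac with p = 0.02 in the authors' deposited table, the single member called in that comparison. OCLN was 1.14-fold higher after the combination and 1.02-fold lower after Heteronemin, where the authors' deposited table gives p = 0.08 and p = 0.74. The 2 claudins had the same order of groups, with Tetrac lowest, then Control, then Heteronemin, then the combination. CLDN4 had a mean of 1000.56 in Control, 1031.74 after Heteronemin, 909.21 after Tetrac and 1148.28 in the combination. None of its differences from Control was called: the p-values in the authors' deposited table were 0.72, 0.35 and 0.15 in the order Heteronemin, Tetrac, combination. CLDN7 had a mean of 951.36 in Control, 993.87 after Heteronemin, 911.76 after Tetrac and 1243.84 in the combination. Its 3 lower groups lay close together and the combination stood above them. CLDN7 was 1.31-fold higher in the combination than in Control, where the authors' deposited table gives p = 0.02; it gives p = 0.65 for Heteronemin and p = 0.7 for Tetrac.

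The scaffold gene TJP3 had the opposite place in the combination. Control had a TJP3 mean of 292.57, Heteronemin of 258.51, Tetrac of 283.88 and Heteronemin+Tetrac of 204.35. It was thus lowest in the group in which OCLN, CLDN4 and CLDN7 were highest. TJP3 was 1.43-fold lower in the combination than in Control, with a p printed as 0 in the authors' deposited table, which stands for any p below 0.005. After Heteronemin it was 1.13-fold lower and after Tetrac 1.03-fold lower, where the authors' deposited table gives p = 0.08 and p = 0.46. Which neighbours in these orders of groups differ beyond their spread cannot be said, since the spread is unknown.

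**Figure D1:**
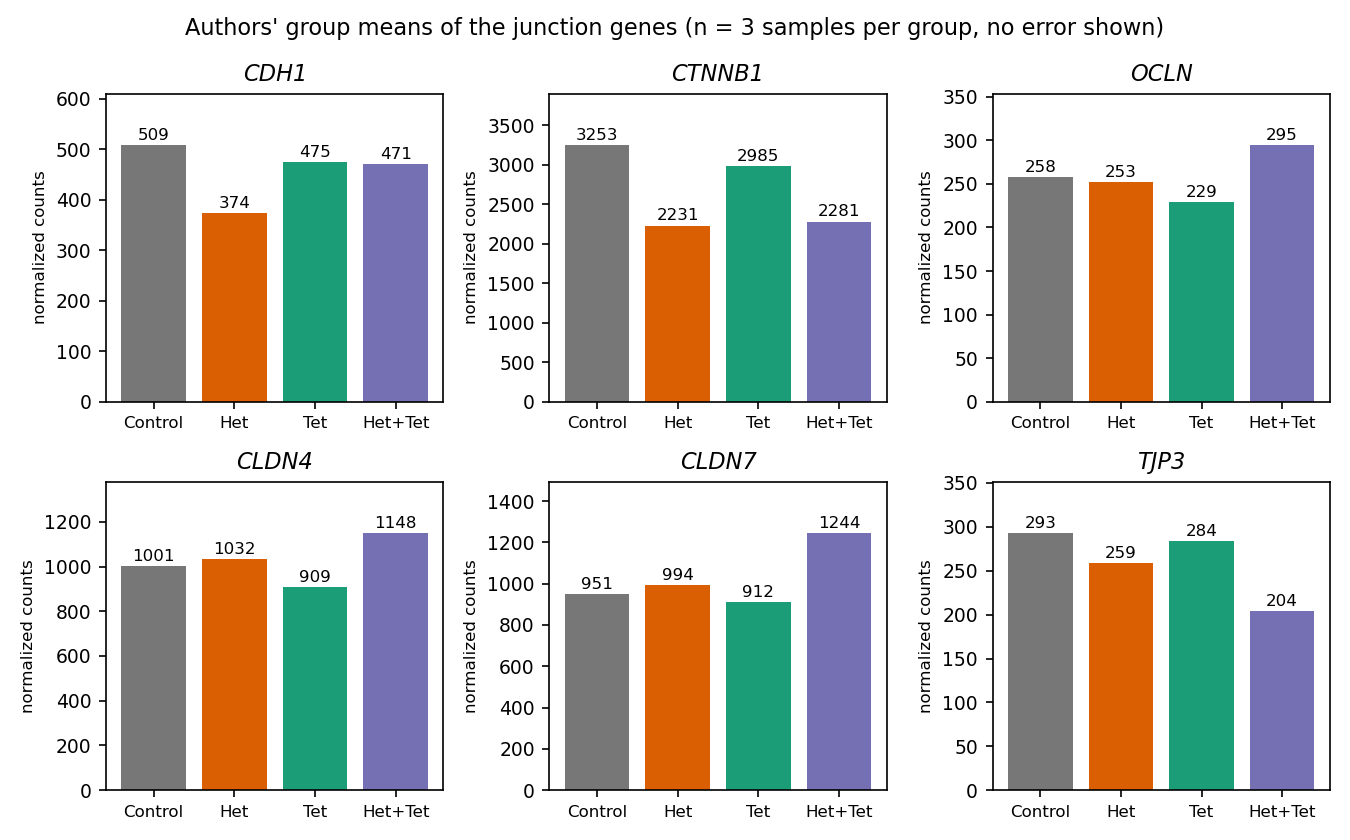
Bars give the authors' group mean of normalized counts, on a linear axis from 0, for each of the 6 junction genes in Control, Heteronemin (Het), Tetrac (Tet) and Heteronemin+Tetrac (Het+Tet); there are 3 samples in a group and no error can be drawn. CDH1 is low after Heteronemin alone, CTNNB1 is low in both groups with heteronemin, OCLN, CLDN4 and CLDN7 are highest in the combination, and TJP3 is lowest there.

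The calls among the members are set beside the share of panel genes called in the same comparison. A gene was called at a p under 0.05 in the authors' deposited table, unadjusted. After Heteronemin 2 of 6 members were called, both lower, where 27.1% of the 704 panel genes with a p were called, 11.2% higher and 15.9% lower. After Tetrac 1 of 6 was called, lower, against 1.26% of 714 genes, 0.28% higher and 0.98% lower. After Heteronemin+Tetrac 3 of 6 were called, CLDN7 higher and CTNNB1 and TJP3 lower, against 22.3% of 686 genes, 8.16% higher and 14.1% lower. All members lie among the 356 genes whose 4 group means average at least 100. There the called share was 38.2% after Heteronemin (9.27% higher, 28.9% lower), 2.25% after Tetrac (0.281% higher, 1.97% lower) and 35.7% in the combination (10.7% higher, 25.0% lower). The members were chosen with these calls known, and the shares are given for scale. The median log2 ratio of the members was -0.10 for Heteronemin, -0.11 for Tetrac and 0.04 for the combination. Over the 356 genes it was -0.19, -0.11 and -0.15, and over all 770 genes 0.11, 0.02 and 0.09. Under Benjamini-Hochberg adjustment over all genes of each table, TJP3 in the combination was the 1 member still called, and 0 were called when each p was taken at the largest value that rounding allows, where its adjusted p was 0.0715.

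Log2 ratios against Control depended on the level of a gene, so each member was also set beside the 50 panel genes nearest to it in mean level. After Heteronemin the median log2 ratio of these neighbours was -0.42 for CTNNB1, and the ratio of CTNNB1 itself, -0.54, lay above 30% of them. For CDH1 the neighbours had a median of -0.24, and its own -0.45 lay above 12% of them. Divided by the panel sum, the log2 ratios after Heteronemin were -0.29 for CTNNB1 and -0.19 for CDH1. The claudins stood at the other end. CLDN4 and CLDN7, with log2 ratios of 0.04 and 0.06, lay above 92% and 94% of their neighbours, whose median was -0.37 for each. In the combination CLDN4 and CLDN7 lay above 94% and 96% of their neighbours and OCLN above 88%. TJP3 lay above 6% of its neighbours there, with a log2 ratio of -0.52 against their median of -0.10. After Tetrac the 6 log2 ratios all lay between -0.17 and -0.04, and 22.2% of the 356 genes averaging at least 100 were above 0. Scaled to the panel sum, CDH1, CLDN7 and TJP3 turned to 0.02, 0.06 and 0.08 there, so the common direction after Tetrac depends on the scaling, and OCLN, the called member, had -0.05. OCLN, at -0.17, lay above 20% of its neighbours and CLDN7, at -0.06, above 96%.

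**Figure D2:**
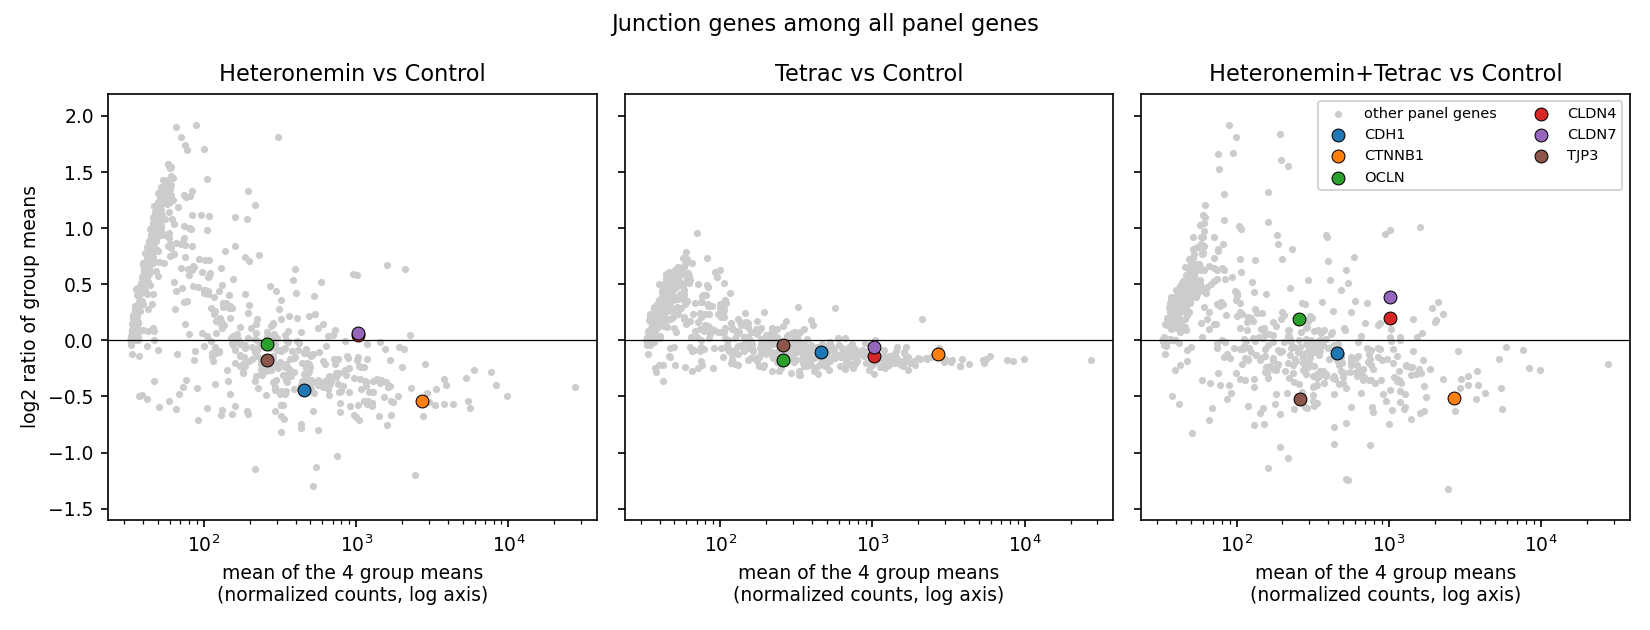
Each point is a panel gene, with the mean of its 4 group means on a log axis against the log2 ratio of treated over Control mean, for Heteronemin, Tetrac and Heteronemin+Tetrac; coloured points are the 6 junction genes and 3 points of other genes fall outside the vertical axis. Genes at low level spread upward and most genes at high level lie below 0, with CLDN4 and CLDN7 at the upper edge of genes of like level after Heteronemin and in the combination.

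Tetrac added to heteronemin was read from the combination over Heteronemin, for which the tables give no p. CDH1 was 1.26-fold higher in the combination, CLDN7 1.25-fold, OCLN 1.17-fold and CLDN4 1.11-fold higher, while CTNNB1 was nearly level at 1.02-fold. TJP3 was 1.27-fold lower. At 1.2-fold or more, 2 members were higher and 1 lower, where 40.2% of 707 panel genes passed, 5.66% higher and 34.5% lower. Among the 356 genes averaging at least 100, 16.3% passed, 8.71% higher and 7.58% lower. CDH1 and CLDN7 each lay above 94% of their neighbours in level, and TJP3 above 2%. Divided by the panel sum, CDH1 and CLDN7 had log2 ratios of 0.25 and 0.24, under 1.2-fold, while TJP3, at -0.42, still passed.

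Heteronemin added to tetrac was read from the combination over Tetrac. CLDN7 was 1.36-fold higher, OCLN 1.29-fold and CLDN4 1.26-fold higher, TJP3 was 1.39-fold and CTNNB1 1.31-fold lower, and CDH1 had a log2 ratio of -0.01. Among the members, the 3 membrane-spanning tight junction genes were thus higher and the scaffold and beta-catenin genes lower. Other membrane-spanning tight junction genes of the panel did not share this direction. CLDN3 was 1.23-fold and CXADR 1.26-fold lower, and F11R had a log2 ratio of -0.02. At 1.2-fold or more, 3 were higher and 2 lower, against 14.2% and 13.6% of 713 panel genes (27.8% in either direction). Among the 356 genes averaging at least 100 the share was 37.1%, with 15.4% higher and 21.6% lower. Heteronemin set against Tetrac gave 2 members at 1.2-fold or more, both lower, CTNNB1 at 1.34-fold and CDH1 at 1.27-fold. Of 716 panel genes 52.4% passed, 38.8% higher and 13.5% lower, and of the 356 genes 38.8% passed, 14.6% higher and 24.2% lower. The other 4 lay between log2 ratios of -0.14 for TJP3 and 0.18 for CLDN4.

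The log2 ratio of the combination was also set against the sum of the log2 ratios of the single treatments. The combination exceeded the sum by 0.43 for CDH1, 0.39 for OCLN, 0.39 for CLDN7, 0.29 for CLDN4 and 0.16 for CTNNB1. TJP3 was the exception, with a difference of -0.30. Of the 356 genes averaging at least 100, 74.4% had a difference above 0, with a median of 0.18 and 5th and 95th percentiles of -0.47 and 0.46. All 6 members lie between these percentiles. TJP3, with neighbours of like level at a median of 0.09, lay above 4% of them. CTNNB1 lay above 12% of its neighbours, whose median was 0.29. CLDN4 lay above 58% of its own, whose median was 0.28. CDH1, OCLN and CLDN7 lay above 94%, 88% and 82% of theirs. The Control mean enters all 3 ratios, so its error is shared by these differences, and they have no test.

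**Figure D3:**
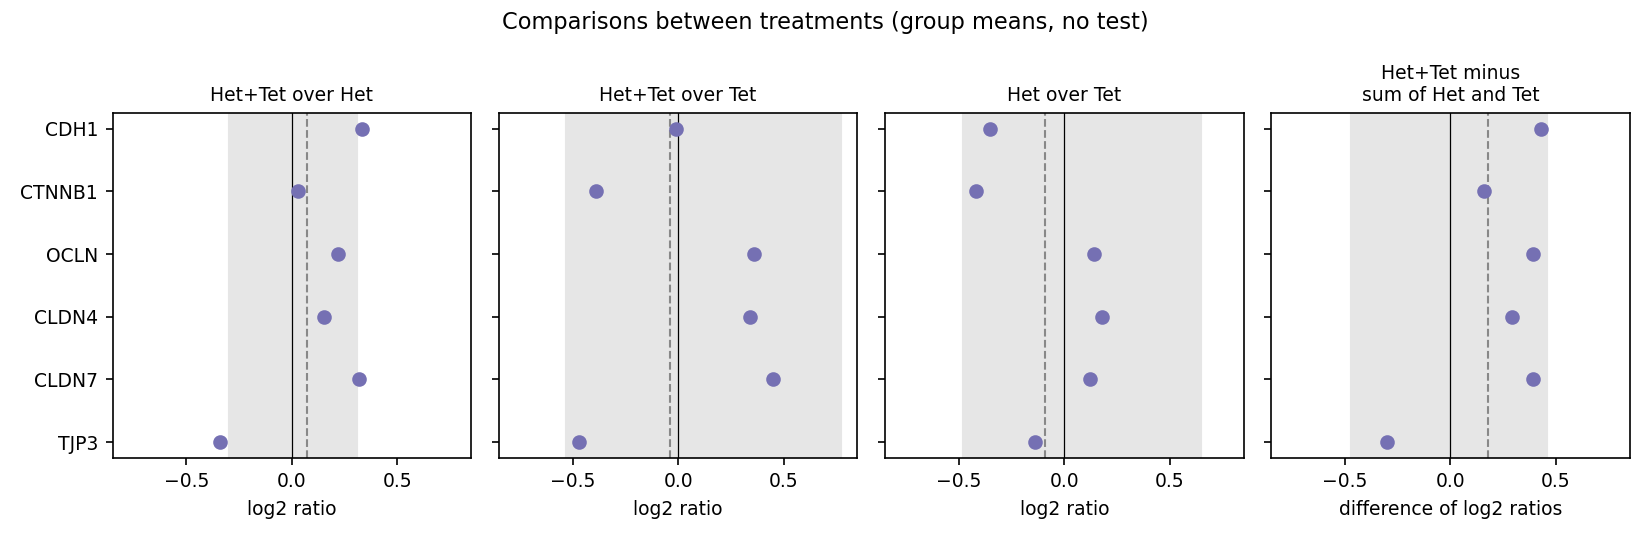
Points give, for the 6 junction genes, the log2 ratio of group means for the combination over Heteronemin, the combination over Tetrac and Heteronemin over Tetrac, and the difference between the log2 ratio of the combination and the sum of those of the single treatments. Grey bands span the 5th to 95th percentile and dashed lines mark the median of the 356 genes averaging at least 100; TJP3 lies left of 0 in all 4 plots, and CDH1, CLDN7 and TJP3 lie just outside the band for the combination over Heteronemin.

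Panel genes with the most similar pattern were sought for each member by the Euclidean distance over the 3 log2 ratios against Control, among endogenous genes above the floor in all 4 groups. The measure rests on 4 group means of which Control is shared, and it describes likeness only. Nearest to CDH1 were MED23, at a distance of 0.026, P3H1 at 0.063 and F11R, at 0.092, which encodes the tight junction adhesion molecule JAM-A. F11R had means of 847.2, 648.86, 765.53 and 757.22 in Control, Heteronemin, Tetrac and the combination, so it too was lowest after Heteronemin alone. Near to CTNNB1 were TMC6 at 0.054 and TFDP1 at 0.055, each lower in both groups with heteronemin. MYC at 0.044, LAMA5 at 0.044 and ACVR1 at 0.068 were nearest to OCLN, and ITGB1 at 0.045, BAG2 at 0.074 and LAMA5 at 0.081 to CLDN4. OCLN itself came in place 4 for CLDN4, at 0.083. CLDN7 had EIF4EBP1 at 0.091, S100A14 at 0.11 and MAP2K1 at 0.125, with CLDN4 in place 12 at 0.204. SCG2 at 0.103, COL6A1 at 0.111 and PIK3R2 at 0.112 were nearest to TJP3. CDH1 and its binding partner CTNNB1 were 0.413 apart, and CTNNB1 came in place 176 for CDH1 in a pool of 453 genes. No other member was nearer to CDH1.

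Other junction genes of the panel were counted without the 6 members. Of 24 listed adherens junction genes 4 others were measured, 3 of them with a p. After Heteronemin and in the combination 1 was called higher and 0 lower, and after Tetrac 0 were called. Of all panel genes with a p, 27.1% were called after Heteronemin, 22.3% in the combination and 1.26% after Tetrac. The called gene was PTPRM, a receptor tyrosine phosphatase that binds itself on adjoining cells. Its means were 130.67 in Control, 218.51 after Heteronemin, 141.06 after Tetrac and 250.58 in the combination, 1.67-fold and 1.92-fold higher in the groups with heteronemin. CTNND1, which encodes p120-catenin, the stabiliser of cadherins at the membrane, had means of 1274.44, 855.76, 1034.5 and 935.35 in the same order. It was 1.49-fold lower after Heteronemin but not called, with p = 0.06 in the authors' deposited table. CDH11, a mesenchymal cadherin, was at the floor in Control and had a mean of 53.33 after Heteronemin, with p = 0.21 in the authors' deposited table. Over all genes with a p, the median log2 ratio was 0.23 for Heteronemin, 0.07 for Tetrac and 0.17 for the combination, and the 3 adherens junction genes had medians of 0.69, 0.11 and 0.35. The values 0.69 and 0.35 are those of CDH11 itself. Panel genes at the floor in Control that had a p showed medians of 0.75, 0.39 and 0.39, and the part of this shift was not tested.

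Of 36 listed tight junction genes 9 others were measured, 8 with a p and 4 at the floor in Control. After Heteronemin 1 was called higher and 1 lower, and 0 were called after Tetrac or in the combination. The called shares of all panel genes with a p were 27.1% after Heteronemin, 1.26% after Tetrac and 22.3% in the combination. CLDN3, another claudin, had means of 135.11 in Control, 178.47 after Heteronemin, 148.65 after Tetrac and 121.14 in the combination. It was 1.32-fold higher after Heteronemin, where the authors' deposited table gives p = 0.02, but 1.12-fold lower in the combination, where it gives p = 0.6. The order of its groups was not that of CLDN4 and CLDN7. F11R was 1.31-fold lower after Heteronemin, with p = 0.01 in the authors' deposited table. CLDN1 was at the floor in all 4 groups. The median log2 ratio of the 8 genes was 0.32 for Heteronemin, 0.25 for Tetrac and -0.04 for the combination. Genes at the floor in Control are among the 8, and the part of their upward shift in these medians was not tested.

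Of the 3 measured desmosome genes, DSC2, a desmosomal cadherin, was 1.35-fold lower after Heteronemin, with p = 0.03 in the authors' deposited table. EVPL, the plaque protein envoplakin, was 1.5-fold lower in the combination, with a p printed as 0 in the authors' deposited table. PPL, its partner periplakin, had means of 492.64, 373.33, 470.26 and 390.33 and was not called. The median of the 3 was -0.40 after Heteronemin, -0.09 after Tetrac and -0.47 in the combination, and 0 were called after Tetrac. Of 14 polarity and junction-linked epithelial genes, 2 were called higher and 3 lower after Heteronemin, and 2 higher and 3 lower in the combination, with 0 after Tetrac. These 14 and the 3 desmosome genes lie among the 356 genes averaging at least 100. There 38.2% were called after Heteronemin (9.27% higher, 28.9% lower), 2.25% after Tetrac and 35.7% in the combination (10.7% higher, 25.0% lower), so the share of the 14 lay near that background. SH2D3A was 1.35-fold and 1.45-fold higher and the polarity gene LLGL2 1.10-fold and 1.14-fold higher after Heteronemin and in the combination. The membrane protease gene ST14 was 1.55-fold and 1.56-fold lower and the adaptor gene AP1M2 1.5-fold and 1.40-fold lower. PRKCZ, an atypical protein kinase C of the polarity complex, was 1.12-fold lower after Heteronemin, and TMC6 was 1.40-fold lower in the combination. The list medians were -0.12, -0.08 and -0.04.

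**Figure D4:**
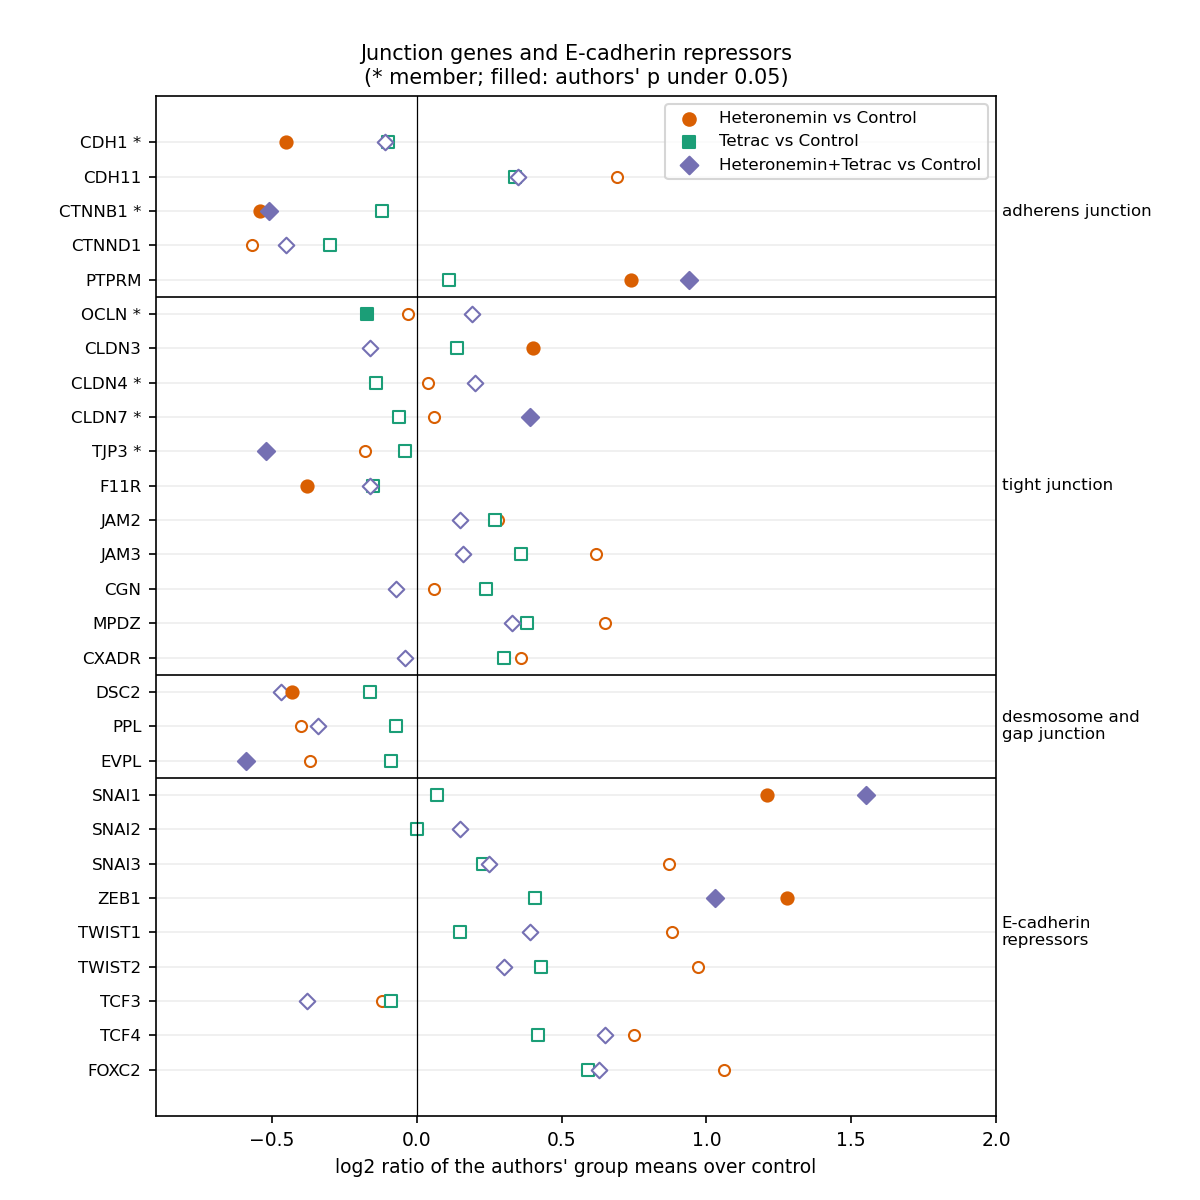
Symbols give the log2 ratio of the authors' group means over Control for adherens junction, tight junction and desmosome genes and E-cadherin repressors that were above the floor in at least 1 group; circles are Heteronemin, squares Tetrac and diamonds Heteronemin+Tetrac, filled where the authors' p was under 0.05 and open otherwise, with the 6 members starred. SNAI1 and ZEB1 lie far to the right in both groups with heteronemin, while the junction genes lie on both sides of 0.

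The repressors of CDH1 were counted in the same samples. SNAI1 had means of 118.96 in Control, 275.23 after Heteronemin, 124.45 after Tetrac and 348.56 in the combination, and it was 1.27-fold higher in the combination than after Heteronemin. The CDH1 means in the same order of groups were 508.86, 373.64, 474.87 and 471.03, and a relation between the 2 genes was not tested. ZEB1 had means of 33.89, 82.12, 45.03 and 69.22 in the same order, near the floor in Control. Of the 10 measured repressors, SNAI1 and ZEB1 were called, higher, after Heteronemin and in the combination, and 0 were called after Tetrac. Over all panel genes with a p, 27.1% were called after Heteronemin and 22.3% in the combination, with 11.2% and 8.16% called higher. After Tetrac 1.26% were called. SNAI2 was at or near the floor, between 33 and 36.57, and ZEB2 was at the floor in all groups. TWIST1, TWIST2, TCF4 and FOXC2 were at the floor in Control, with highest means of 60.88, 64.51, 55.39 and 68.95, all after Heteronemin, and were not called. SNAI3 had means of 50.85 in Control, 92.92 after Heteronemin, 59.81 after Tetrac and 60.43 in the combination. TCF3 went the other way, with 73.95, 67.94, 69.57 and 56.68 in the same order. Neither SNAI3 nor TCF3 was called. The list's median log2 ratio was 0.93 over 8 genes with a p after Heteronemin, 0.32 after Tetrac and 0.39 over 9 genes in the combination, against 0.23, 0.07 and 0.17 over all genes with a p. Of the 10 repressors 6 were at the floor in Control, as were 279 panel genes, against 70 after Heteronemin, 61 after Tetrac and 90 in the combination. The panel genes at the floor in Control that had a p showed median log2 ratios of 0.75, 0.39 and 0.39 themselves, and the part of this shift in the list's medians was not tested.

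Partners and targets of beta-catenin were measured for 5 of 19 listed genes. APC, the scaffold of the complex that degrades beta-catenin, stayed between 99.16 and 110.05. MYC, a target gene, had means of 2068.36 in Control, 1964.19 after Heteronemin, 1843.02 after Tetrac and 2350.85 in the combination, and was not called. CD44, another target, was 1.41-fold lower after Heteronemin, with p = 0.05 in the authors' deposited table, which the rule does not call, and 1.19-fold lower in the combination, with p = 0.04. CD44 was the 1 gene of the list called in any comparison. Of all panel genes with a p, 22.3% were called in the combination, 8.16% higher and 14.1% lower. The list medians were 0.04, 0.07 and 0.18.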

How the data were processed

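Data came from 3 tables of NanoString counts, 1 per treatment, each covering 770 genes (740 endogenous, 30 housekeeping), with 3 samples in each of 4 groups. Per the series' design text, raw counts were normalized by the authors in nSolver 4.0, with a positive control factor per sample and a biological normalization. The deposited signal is the authors' mean of normalized counts over the treated and over the Control samples, and the Control column was identical in the tables. They deposited a score, the signed fold change, which matched the quotient of the means within 0.00511. They deposited a p-value for each gene, to 2 decimals, empty for 66, 56 and 84 genes after Heteronemin, Tetrac and the combination. The sources used here give neither the test behind it, nor the kind of mean, nor a genome build.

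Log2 ratios of group means, counts of genes at p under 0.05 and, between treatments, at 1.2-fold or more were computed with Python 3.11.15, pandas 2.3.3 and numpy 2.4.6, and plots were drawn in matplotlib 3.10.9. Call counting, adjustment and level correction were tested on simulated data. No new test was fitted. The members and gene lists were chosen with earlier results of these data known. Named genes are the members, called genes of the 6 lists (up to 4 per list and comparison), measured cadherins, catenins, claudins and TJP genes, and the 3 panel genes nearest in pattern to each member. Other genes named from the lists were chosen after their values were seen. Some genes that these rules name are not reported here. Promoter windows are from RefSeq, matched by symbol. Alternatives were other p rules, a minimum level, a minimum fold, other scalings, a level correction and a pseudocount.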

Additional observations from a re-analysis of the deposited data

How the results depend on the processing

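No paired analysis was possible because the 3 tables give group means, and values per sample were not used here; leaving out single samples was not run for the same reason. Adjusting the printed p-values (Benjamini-Hochberg) left 41 panel genes and 0 members called after Heteronemin, 0 and 0 after Tetrac, and 48 and 1 (TJP3) in the combination. With the largest p that rounding allows, an alternative added after seeing the data, adjustment left 0 panel genes and 0 members in each of the 3 comparisons, while the unadjusted counts were 191, 9 and 153 genes and 2, 1 and 3 members. With a fold of 1.2 or more required, 3 panel genes and 0 members were called after Tetrac. At 1.5-fold instead of 1.2-fold, 0 members passed in any comparison between treatments, and 76 panel genes passed for the combination over Heteronemin, 50 for the combination over Tetrac and 125 for Heteronemin over Tetrac. At a mean level of 100 or more the 1.2-fold counts were 58 (31 higher, 27 lower) and 138 (52 higher, 86 lower) for the combination over Heteronemin and Heteronemin over Tetrac.

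Dividing by the panel sum shifted all log2 ratios by 0.25, 0.12 and 0.17 after Heteronemin, Tetrac and the combination. This or the level correction turned some small log2 ratios of members against Control positive. After Heteronemin OCLN turned to 0.22 by panel sum and 0.11 by level correction, and TJP3 to 0.07 by panel sum. After Tetrac CDH1 turned to 0.02 under either, CLDN7 to 0.06 and 0.09, TJP3 to 0.08 and 0.05, and CTNNB1 and CLDN4 to 0.04 and 0.02 by level correction. In the combination CDH1 turned to 0.05 under either. None of these was a called difference. Between treatments, CTNNB1 in the combination over Heteronemin turned from 0.03 to -0.05 by panel sum and -0.08 by level correction. CDH1 in the combination over Tetrac turned from -0.01 to 0.03 by panel sum. Scaling to the housekeeping genes and a pseudocount of 10 changed the sign of 0 of 36 member ratios each, and the panel sum and the level correction of 8 each. The called differences kept their direction under these 4 settings, but not their size. By panel sum and by level correction, CDH1 after Heteronemin moved from -0.45 to -0.19 and -0.21, CTNNB1 from -0.54 to -0.29 and -0.12, and OCLN after Tetrac from -0.17 to -0.05 and -0.08. In the combination CTNNB1 moved from -0.51 to -0.35 and -0.21, CLDN7 from 0.39 to 0.55 and 0.63, and TJP3 from -0.52 to -0.35 and -0.42. For the combination over Heteronemin, CDH1 moved from 0.33 to 0.25 and 0.24, and CLDN7 from 0.32 to 0.24 and 0.22. Both fell under 1.2-fold, while TJP3, moving from -0.34 to -0.42 and -0.38, did not. For Heteronemin over Tetrac, CDH1 fell under 1.2-fold by panel sum, at -0.22, and CTNNB1 by level correction, at -0.17. Precision is limited by p-values printed to 2 decimals and by the use of group means.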
